A study of Caenorhabditis elegans and Caenorhabditis briggsae with 12 samples.

Results

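The heat responses of *Caenorhabditis elegans* and *Caenorhabditis briggsae* were compared gene by gene over ortholog pairs, that is, genes of the 2 species that descend from the same ancestral gene. A pair was a member if it had 1 partner on each side in the study's ortholog table and a value in both expression files. There were 1317 such pairs among 1569 links of that table, against 20213 *C. elegans* and 21168 *C. briggsae* genes measured. The table holds only genes found risen after heat shock and their orthologs, so a gene may have further orthologs that it does not show. Some pairs join genes of different names, such as *kgb-2* with *Cbr-kgb-1* and *wago-5* with *Cbr-wago-1*, and may compare different members of a gene family. The animals were whole larvae of stage L2, for *C. elegans* of the wild-type strain N2 and for *C. briggsae* of the wild-type strain AF16. The labels name no transgene or mutation in either strain. In each species 3 replicates were held in a water bath at 34 °C for 30 min (HS) and 3 were kept at 20 °C (NHS), giving 12 libraries in 4 groups. The measure for each pair was the difference of log2 fold changes, HS over NHS in N2 minus HS over NHS in AF16, so that a positive value means a larger response in N2 and a negative value a larger response in AF16. Levels were normalized within each species and are not compared between species.

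Heat shock unfolds proteins, and the transcription factor HSF-1 answers by binding heat shock elements (HSEs) near its targets and raising their mRNAs. The classical targets encode chaperones: Hsp90 with its co-chaperones, which mature client proteins such as kinases, Hsp70 and Hsp110, which refold proteins and dissolve aggregates, J-domain proteins, which deliver substrates to Hsp70, and small heat shock proteins, which keep unfolded clients soluble. In *Caenorhabditis*, copies of Helitrons, a class of DNA transposons, can carry HSEs, and the study distinguished Helitron-acquired (Hac) from Helitron-independent (Hin) HSEs upstream of genes. The 2 species look alike but have long been separate, so that a gene may have kept, gained or lost a heat response in either of them.

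The ortholog table holds only genes that the study had found risen after HS in these same libraries, and this fixes much of what can be read from it. Of the 1317 pairs, 168 were listed as risen in both species, 690 in N2 only and 459 in AF16 only. For pairs listed from 1 side the listing favoured 1 direction of the difference. The difference was positive in 584 of the 595 pairs listed in N2 only that entered the fit and in 11 of the 412 listed in AF16 only. These pairs were fitted and called at the same thresholds as the others. Their values and calls are given as a description, and the calls are no independent test of a difference. For the 168 pairs listed in both species the listing did not favour either response, and the difference was tested. Their p-values were adjusted together with those of the pairs listed from 1 side. The many calls among the latter make the adjustment more lenient for the 168 pairs. A further 780 pairs were matched by gene name (Cbr- followed by the *C. elegans* symbol) in a part of the study's *C. briggsae* gene table that is ordered by gene ID and was not chosen by heat response. Of these, 44 were also in the ortholog table.

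Normalized counts summed to between 39400000 and 46900000 in the HS libraries and between 32200000 and 35300000 in the NHS libraries, with an estimated depth of 28600000 to 52600000 reads. In N2 the larval markers *myo-3* and *unc-54* (muscle), *myo-2* (pharynx), *elt-2* and *ges-1* (intestine), *dpy-7* and *bli-1* (epidermis) and *unc-119* and *rab-3* (neurons) were detected in every library. The 6 yolk genes together had 157 to 280 normalized counts in N2 HS and 47.6 to 63.9 in N2 NHS. In AF16 only *rab-3* and *vit-6* of these markers carried a name. All N2 libraries came from a different sequencing lane than all AF16 libraries, so lane and species cannot be told apart. These were whole animals, in which fewer cells of a type and less RNA per cell cannot be told apart.

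AF16 HS replicate 1 stood apart from the other AF16 HS libraries. Its log2 values correlated with them across genes at 0.975 and 0.978, against 0.990 between the other AF16 HS libraries. It differed more than 2-fold from the mean of the other pair in 1251 genes (7.97% of those with a mean of at least 10), against 416 and 572 genes for replicates 3 and 2. Over the pairs listed in N2 only, its median log2 rise over the NHS mean was 0.64, against 0.23 and 0.28 in replicates 2 and 3. Over the pairs listed in AF16 only the order was turned, with 1.43 in replicate 1 against 1.81 in each of replicates 2 and 3. For the list of HSP90, co-chaperones and J-domain proteins the values were 1.28, 2.22 and 2.08. The main counts over whole sets of pairs are therefore also given without AF16 HS replicate 1. Several counts of gene lists and HSE classes are given with all libraries only, and some of these change without it.

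**Figure D1:**
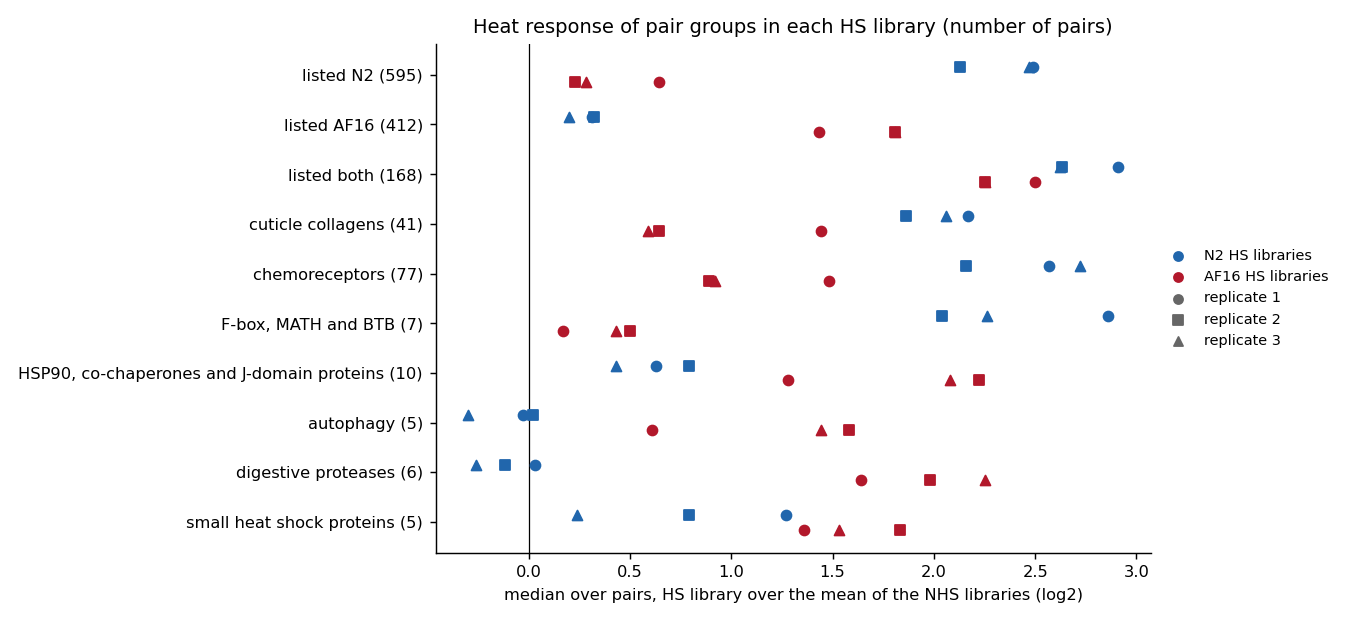
Median log2 rise over the mean of the NHS libraries (x axis) in each HS library of N2 (blue) and AF16 (red), for pairs grouped by listing and for 7 gene lists, with the number of fitted pairs in brackets and the shape giving the replicate. AF16 HS replicate 1 (red circles) lies at 1.44 for collagens, against 0.64 and 0.59 in replicates 2 and 3, and at 0.61 for autophagy genes, against 1.58 and 1.44.

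Of the 1317 pairs, 1175 had a mean of at least 2 normalized counts in both species and entered the fit. All 168 pairs listed in both species were among them. Of the pairs listed in N2 only, 95 were below that mean in AF16, and 47 of those listed in AF16 only were below it in N2. A difference was called at an adjusted p under 0.01 (limma, Benjamini-Hochberg over the 1175 pairs) and a log2 difference above 1 either way. At these thresholds 360 pairs had the larger response in N2 (30.6%) and 262 in AF16 (22.3%), together 52.9%, and 553 were not called. Without AF16 HS replicate 1 the counts were 436 and 292. These shares describe a table chosen for heat-responsive genes, and nothing is read from them.

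Among the 168 pairs that were listed in both species, most did not differ past the thresholds. The median log2 fold change of these pairs was 2.74 in N2 and 2.26 in AF16, and 133 of them were also called up in both species by limma. In 22 pairs (13.1%) the N2 response was larger, in 19 (11.3%) the AF16 response was larger, and 127 (75.6%) were not called. Without AF16 HS replicate 1 the called pairs numbered 32 and 22. Across these pairs, which share the 12 libraries, Pearson's r of the log2 fold changes was 0.22 and Spearman's rho 0.24. The listing required a rise in both species, which narrows the range of both values and can by itself lower these correlations. In 90 pairs (53.6%) the fold changes lay within 2-fold of each other.

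Among pairs that were not chosen by heat response, few were called. Of the 780 name-matched pairs 743 were fitted, 14 had the larger log2 fold change in N2 (1.88%) and 19 in AF16 (2.56%), together 4.44%, with a median difference of -0.02 and 86.7% of pairs within 2-fold. Leaving out AF16 HS replicate 1 raised these counts to 33 and 37. Pearson's r of the log2 fold changes across these pairs was 0.52 and Spearman's rho 0.48. Most of the 743 pairs had little heat response that could differ, with 40 called up and 27 down in N2 and 24 up and 14 down in AF16. Their median NHS levels were 605 in N2 and 742 in AF16, against 14.3 and 29 over the 1175 pairs of the table. Among the 700 fitted name-matched pairs outside the table, 7 were called larger in N2 and 14 larger in AF16. Among all genes tested in their own species, 1791 of 17551 (10.2%) were up and 486 (2.77%) down in N2 HS, against 832 of 18470 (4.5%) up and 320 (1.73%) down in AF16 HS.

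**Figure D2:**
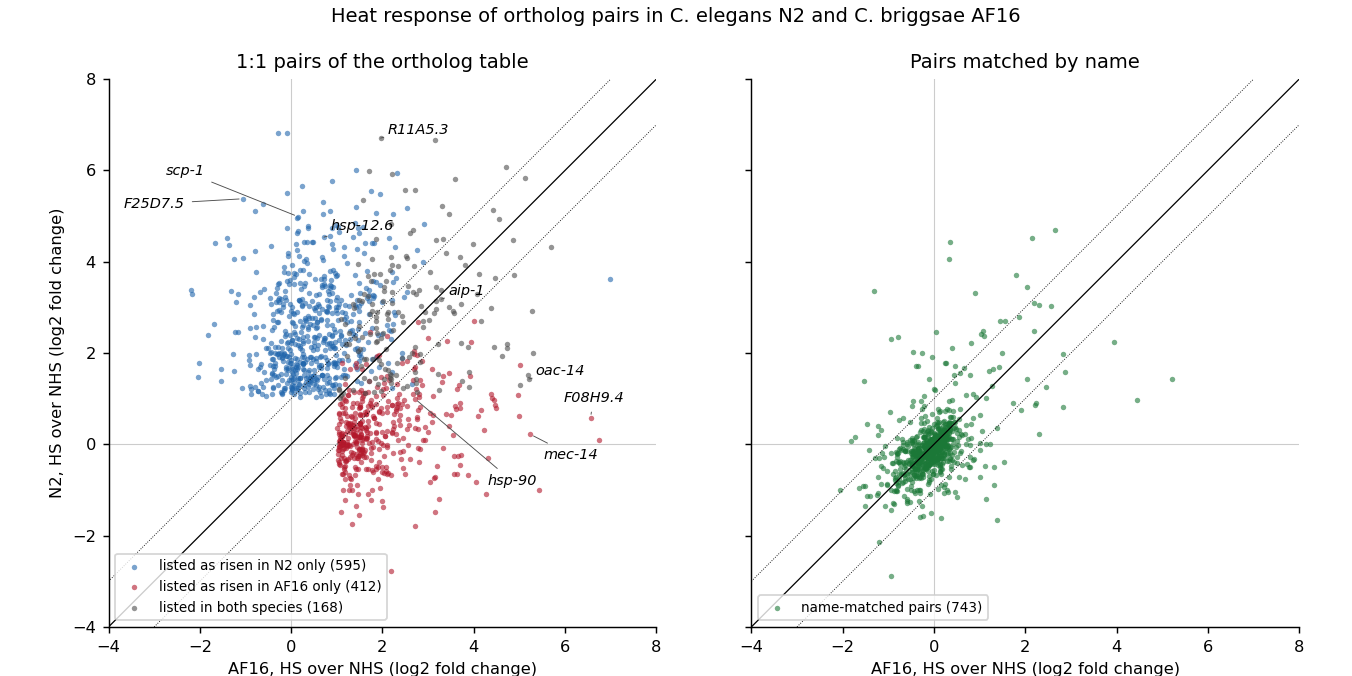
Log2 fold change (HS over NHS) in N2 (y axis) against AF16 (x axis), 1 point per pair, for the 1175 fitted pairs of the ortholog table (left, coloured by the species in which the study listed the gene as risen) and for the 743 fitted name-matched pairs (right). The solid line marks equal responses and the dotted lines a 2-fold difference. The listing leaves the lower left of the first panel empty, and 86.7% of the name-matched pairs lie between the dotted lines.

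For *hsp-90* and 5 other genes of its list the larger response in AF16 was called. The list of HSP90, co-chaperones and J-domain proteins held 10 pairs, all fitted, and in every 1 of them the log2 fold change was smaller in N2 than in AF16 (median difference -1.28, against 0.74 over all 1175 pairs). Of these, 6 were called, and all 6 came from the 7 pairs listed in AF16 only, a class in which 59% of pairs were called and the median difference was -1.48. The listing thus favoured the direction of those 6. None of the 3 members listed in both species (*aip-1*, *dnj-13* and *unc-23*) was called with all libraries. Of 5 further members in the name-matched set 0 were called, with a median difference of 0.04. Their median log2 fold changes were only 0.02 in N2 and 0.24 in AF16. With so little response that could differ, they are no check on the 10 pairs. AF16 HS replicate 1 had the lowest rise of the 3 AF16 HS libraries in 9 of the 10 pairs, and 7 pairs were called without it, the added 1 being *unc-23*.

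The *hsp-90* gene (chromosome V, 14684918 to 14688545, WBcel235), which encodes the cytosolic Hsp90, had 263116, 329695 and 207979 normalized counts in N2 HS, against 130437, 134851 and 127026 in N2 NHS. *Cbr-hsp-90* had 517743, 868149 and 811881 in AF16 HS, against 110924, 108373 and 109056 in AF16 NHS. HS libraries lay above NHS libraries in both species, and the mRNA was called up in both, with log2 fold changes of 1.00 in N2 and 2.71 in AF16. The difference was -1.70 (SE 0.29), and -1.93 without AF16 HS replicate 1. The co-chaperone *cdc-37*, which brings kinases to Hsp90, had 1962, 2068 and 2078 normalized counts in N2 HS and 2002, 1951 and 2010 in N2 NHS. The N2 groups overlapped. Its partner had 6878, 15327 and 11674 in AF16 HS and 2778, 2739 and 2667 in AF16 NHS, and every AF16 HS library was above every NHS library (log2 fold changes 0.03 in N2 and 1.97 in AF16, difference -1.94, SE 0.32).

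The same contrast held for other members of this list. The immunophilin *fkb-6* had log2 fold changes of 0.11 in N2 and 1.87 in AF16 (difference -1.77, SE 0.33). For the J-domain protein *dnj-12* the values were 0.19 and 1.66 (difference -1.47, SE 0.31). The myosin chaperone *unc-45* had 0.23 in N2 and 1.53 in AF16 (difference -1.30, SE 0.29). For *sti-1*, the homolog of the Hsp70-Hsp90 organizing protein Hop, the log2 fold changes were -0.14 in N2 and 1.12 in AF16 (difference -1.26, SE 0.29). All 4 were called up in AF16 and not in N2. The cyclophilin *cyn-2*, also listed in AF16 only, was called up in both, with 1.13 in N2 and 1.61 in AF16 (difference -0.48, SE 0.38).

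For the members listed in both species no difference was called with all libraries. The J-domain protein *dnj-13* rose by 1.62 on the log2 scale in N2 and 2.13 in AF16, and the difference of -0.51 (SE 0.24) did not pass the threshold (limma, adjusted p = 0.072). For the BAG-domain co-chaperone *unc-23* the rises were 1.90 in N2 and 2.44 in AF16 (difference -0.55, SE 0.45, limma adjusted p = 0.28), but without AF16 HS replicate 1 the difference of -1.01 passed the thresholds (limma adjusted p = 0.0057). The arsenite-inducible *aip-1*, which acts at the proteasome, had 5323, 7067 and 2901 normalized counts in N2 HS against 494, 581 and 504 in N2 NHS, and 4681, 5310 and 4825 in AF16 HS against 476, 444 and 604 in AF16 NHS. Its rises were 3.18 in N2 and 3.29 in AF16, and the 95% interval of the difference ran from -0.88 to 0.67.

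**Figure D3:**
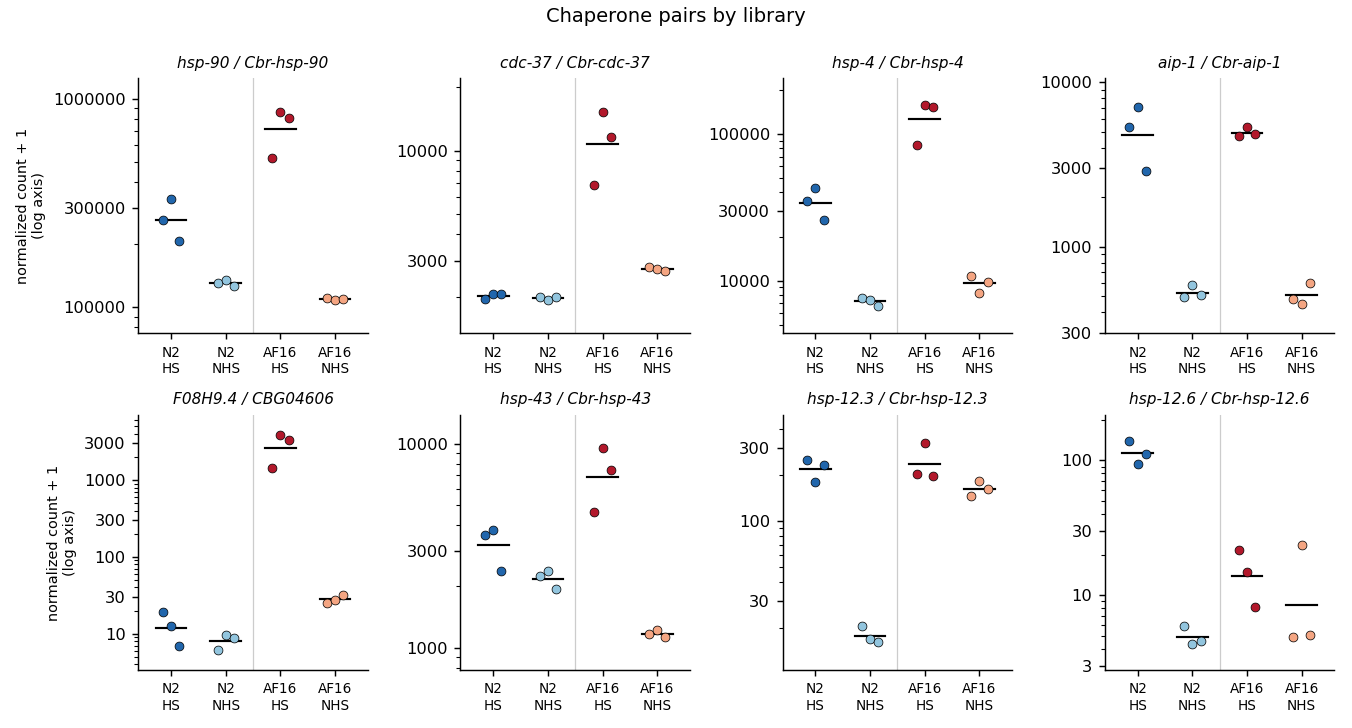
Normalized count + 1 (log axis) in each library of 8 chaperone pairs, with N2 HS and NHS to the left and AF16 HS and NHS to the right of the grey line and the bar giving the group mean on the log scale. Levels are comparable within a species only. For *hsp-90* the step between HS and NHS is larger in AF16 (log2 2.71) than in N2 (1.00), and for *hsp-12.3* it is larger in N2 (3.62) than in AF16 (0.53).

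Of 3 Hsp70-family pairs, the chaperone of the endoplasmic reticulum differed. The BiP gene *hsp-4* (chromosome II, 7350112 to 7352645) had 35063, 42704 and 25933 normalized counts in N2 HS against 7652, 7360 and 6699 in N2 NHS, and 84676, 156900 and 152035 in AF16 HS against 10808, 8299 and 9800 in AF16 NHS. HS and NHS did not overlap in either species. It was listed in both, and the rise of 2.23 in N2 was smaller than that of 3.72 in AF16 (difference -1.49, SE 0.34, adjusted p = 0.0014 by limma). The call held when any of the 12 libraries was left out. The rise of *hsp-110* was 2.93 in N2 and 3.54 in AF16, which did not pass the threshold (difference -0.61, SE 0.29, adjusted p = 0.072). The mitochondrial *hsp-6*, listed in AF16 only, had 0.36 in N2 and 1.01 in AF16 (difference -0.65, SE 0.22).

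Small heat shock proteins differed both ways. The 5 fitted pairs of this list were 2 listed in N2 only and 3 listed in AF16 only, so the listing favoured 1 direction for each. Of these pairs 2 were called larger in N2 and 2 larger in AF16, and the fifth, *sip-1*, was not called with all libraries (difference -0.89) and was called larger in AF16 without AF16 HS replicate 1 (-1.25). Over all 1175 pairs 30.6% were called larger in N2 and 22.3% larger in AF16. *F08H9.4* had 18.3, 11.8 and 5.9 normalized counts in N2 HS and 5.11, 8.69 and 7.69 in N2 NHS, groups that overlapped. Its partner CBG04606 had 1444, 3896 and 3277 in AF16 HS and 24.3, 26.5 and 30.8 in AF16 NHS, and all HS libraries were far above all NHS libraries. The log2 fold changes were 0.58 in N2 and 6.56 in AF16 (difference -5.98, SE 0.56). The *hsp-43* pair had 0.55 in N2 and 2.56 in AF16 (difference -2.01, SE 0.35).

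The neighbouring genes *hsp-12.3* and *hsp-12.6* on chromosome IV went the other way. *hsp-12.3* had 248, 180 and 230 normalized counts in N2 HS and 19.7, 15.9 and 15.1 in N2 NHS, against 201, 325 and 197 in AF16 HS and 144, 182 and 161 in AF16 NHS. HS lay above NHS in both species, by a wide margin in N2 only. The rise of 3.62 in N2 was called, and the value of 0.53 in AF16 was not (difference 3.09, SE 0.34). *hsp-12.6* had 139, 92.5 and 110 in N2 HS and 4.92, 3.34 and 3.55 in N2 NHS, with no overlap. Its partner had 20.7, 14 and 7.15 in AF16 HS and 3.94, 22.7 and 4.11 in AF16 NHS, with overlap, and the difference was 3.82 (SE 0.74).

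Autophagy genes, digestive proteases and proteasome genes were mostly listed in AF16 only. Of 5 autophagy pairs 4 had the larger response in AF16 and 0 in N2 (median difference -1.46), and all 4 were listed in AF16 only, where 59% of all pairs were called and the median was -1.48. *lgg-1*, the Atg8 homolog that coats autophagosomes, had log2 fold changes of 0.01 in N2 and 1.14 in AF16, and its difference of -1.13 (SE 0.34) remained past the thresholds in 2 of the 12 fits that left out a library. The *epg-4* pair, which acts in autophagosome formation, had -0.12 in N2 and 1.48 in AF16 (difference -1.60, SE 0.29), with the AF16 rise called. The Beclin homolog *bec-1* had 511, 558 and 416 normalized counts in N2 HS and 611, 524 and 519 in N2 NHS, against 1175, 2430 and 2434 in AF16 HS and 812, 685 and 814 in AF16 NHS. Its difference was -1.47 (SE 0.35), but its own AF16 rise of 1.31 was not called by limma, nor was that of *atg-16.1* (difference -1.46, SE 0.35). In the name-matched set, 1 of 4 autophagy pairs was called larger in AF16 (median -0.97, and 2 called without AF16 HS replicate 1).

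Cathepsins, which digest proteins in lysosomes and the gut, were called up in AF16 and not in N2. *cpl-1* (cathepsin L) had 10099, 11742 and 9956 normalized counts in N2 HS and 12049, 11517 and 14459 in N2 NHS, and 44948, 68692 and 68623 in AF16 HS and 15226, 13245 and 15335 in AF16 NHS. The AF16 groups did not overlap (log2 fold changes -0.26 in N2 and 2.03 in AF16, difference -2.29, SE 0.27). For the cathepsin B genes *cpr-6* and *cpr-1* the differences were -2.65 (SE 0.30) and -2.55 (SE 0.33). In all, 4 of 6 digestive protease pairs were called larger in AF16 and 1, *try-9*, larger in N2, which followed their listing (5 in AF16 only, 1 in N2 only, classes with 59% and 56.8% of pairs called). Of 8 fitted proteasome and ubiquitin pairs 3 were called larger in AF16 (*skr-19* and *skr-20*, adjacent SCF ligase subunits that may share reads, and *marc-4*, with differences from -1.09 to -2.16) and 1 larger in N2, against 22.3% and 30.6% of all fitted pairs.

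Among pairs listed in both species, those with a larger response in N2 were led by *R11A5.3*, *hdl-1* and *nhr-2*. *R11A5.3* (chromosome I, 7862529 to 7863569) had 13075, 12944 and 9103 normalized counts in N2 HS and 140, 124 and 74.5 in N2 NHS. Its partner CBG23737 had 63.3, 37.7 and 34.6 in AF16 HS and 9.85, 14.2 and 8.22 in AF16 NHS. Both rose, by 6.71 on the log2 scale in N2 and by 1.96 in AF16, a difference of 4.76 (SE 0.42, limma adjusted p = 4.2e-07), or 27.1-fold. *hdl-1* had 218, 147 and 118.7 in N2 HS and 1.97, 1.67 and 0.887 in N2 NHS, against 368, 188 and 280 in AF16 HS and 84.7, 79.5 and 80.2 in AF16 NHS. HS was above NHS in every library of both species, and the difference was 4.29 (SE 0.43, adjusted p = 1.3e-06). The nuclear receptor *nhr-2* had 101, 107 and 81.4 in N2 HS and 0.983, 2.5 and 0.887 in N2 NHS, against 39, 18.3 and 37 in AF16 HS and 10.5, 12.3 and 6.17 in AF16 NHS. The rise of 5.36 in N2 was called by limma and that of 1.58 in AF16 was not (difference 3.78, SE 0.54, adjusted p = 3.3e-05).

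The 10 largest differences of this kind ranged from 2.49 to 4.76. *F26H11.4* (difference 3.07, SE 0.56), *B0228.8* (2.86, SE 0.69), *F58E6.5* (2.64, SE 0.62) and *C18H9.1* (2.63, SE 0.51) were called up in both species. The chemoreceptor *sri-36* (3.71, SE 0.65) and *rnh-1.1*, which encodes a ribonuclease H (2.49, SE 0.64), were called up in N2 only. The remaining pair, *F52G3.4* with CBG26851, is of the Helitron transposase kind, is annotated as a pseudogene in *C. elegans* and may share reads with other copies. It had 1305, 1218 and 1234 normalized counts in N2 HS and 13.8, 10.9 and 9.76 in N2 NHS, against 918, 189 and 225 in AF16 HS and 40.1, 31.2 and 41.1 in AF16 NHS. AF16 HS replicate 1 lay far above the other AF16 HS libraries, and the difference was 3.51 (SE 0.59, adjusted p = 1.4e-04), or 4.22 without it.

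**Figure D4:**
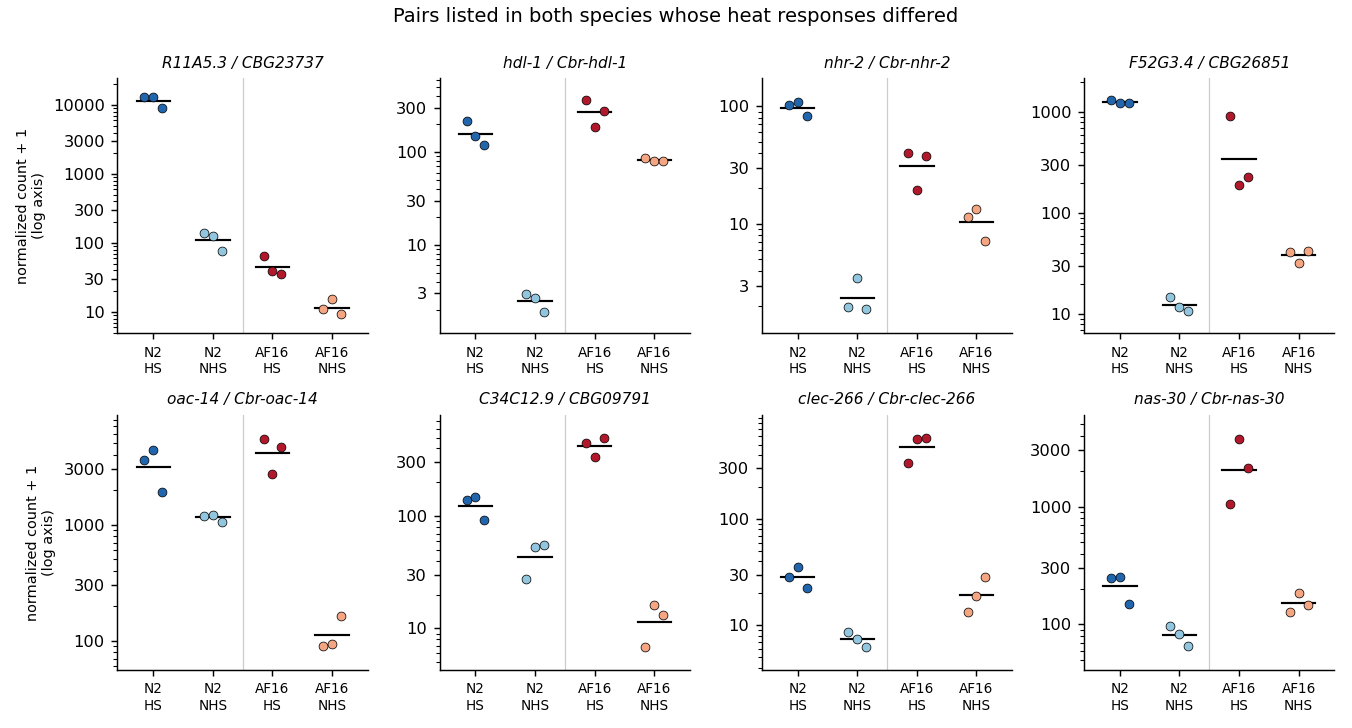
Normalized count + 1 (log axis) in each library of 8 pairs listed as risen in both species, 4 with a larger response in N2 (top) and 4 with a larger response in AF16 (bottom), in the order N2 HS, N2 NHS, AF16 HS, AF16 NHS, with the bar at the group mean on the log scale. Levels are comparable within a species only. *R11A5.3* has log2 fold changes of 6.71 in N2 and 1.96 in AF16, and *oac-14* has 1.43 in N2 and 5.21 in AF16.

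Pairs with the larger response in AF16 included enzymes, a lectin and a protease. *oac-14*, a predicted membrane O-acyltransferase (chromosome X, 10139372 to 10142013), had 3574, 4395 and 1891 normalized counts in N2 HS and 1181, 1217 and 1059 in N2 NHS, against 5478, 2739 and 4652 in AF16 HS and 88.7, 91.8 and 163 in AF16 NHS. The groups did not overlap in either species, and the AF16 rise of 5.21 was called by limma while the N2 value of 1.43 was not (difference -3.79, SE 0.45, adjusted p = 6.5e-06). *C34C12.9* had 137, 146 and 91.1 in N2 HS and 26.5, 51.8 and 54.1 in N2 NHS, against 447, 335 and 491 in AF16 HS and 5.91, 15.1 and 12.3 in AF16 NHS. It rose in both (difference -3.69, SE 0.49, adjusted p = 1.8e-05). The C-type lectin *clec-266* had 27.7, 34.8 and 21.6 in N2 HS and 7.68, 6.53 and 5.25 in N2 NHS, against 335, 569 and 581 in AF16 HS and 12.5, 18 and 27.7 in AF16 NHS, and rose in both species (difference -2.69, SE 0.47, adjusted p = 1.8e-04).

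The astacin metalloprotease *nas-30* had 247, 251 and 148 normalized counts in N2 HS and 95.4, 81.8 and 64.7 in N2 NHS, against 1045, 3754 and 2140 in AF16 HS and 126, 185 and 145 in AF16 NHS. It was called up in both species (difference -2.37, SE 0.51, adjusted p = 9.4e-04). *C14F11.4* had a difference of -3.70 (SE 0.43) and the chemoreceptor *srh-17* of -3.28 (SE 0.57), and both calls held when any library was left out. Others rested on few libraries: *ech-9*, an enzyme of fatty acid oxidation (-2.64, SE 0.75), remained past the thresholds in 2 of 12 such fits, *str-204* (-2.35, SE 0.70) in 3, *C15A11.2* (-2.32, SE 0.64) in 5 and *R09E10.13* (-2.55, SE 0.68) in 6. The bZIP factor *zip-5* rose by 1.23 in N2 and 2.46 in AF16 (difference -1.23, SE 0.28).

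For a few pairs the data could place the responses close together. Of 139 pairs listed in both species with a mean of at least 10 in each, 11 had a 95% interval of the difference that lay within -1 and 1. The cuticle collagen *col-97* had 904, 1096 and 555 normalized counts in N2 HS and 111 ± 16.5 (SD, n = 3) in N2 NHS, against 1747, 1772 and 1422 in AF16 HS and 180, 273 and 198 in AF16 NHS. Its rises were 2.89 in N2 and 2.93 in AF16 (interval -0.80 to 0.70). The glyoxalase *glod-4* rose by 1.13 in N2 and 1.14 in AF16 (interval -0.54 to 0.51). *spg-20*, the spartin homolog, rose by 1.21 in N2 and 1.04 in AF16 (interval -0.32 to 0.68). Likewise *F41C3.2* rose by 2.09 in N2 and 2.08 in AF16 (interval -0.73 to 0.75) and *C06A8.8* by 1.08 in N2 and 1.10 in AF16 (interval -0.65 to 0.60). For the other pairs that were not called, the intervals reached beyond a 2-fold difference, and the absence of a call does not show equal responses.

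Cuticle collagens, the structural proteins of the worm's outer coat, made up 44 pairs, 35 of them listed in N2 only, 7 in AF16 only and 2 in both. Of 41 fitted pairs 16 were called larger in N2 and 1 larger in AF16, against 30.6% and 22.3% of all fitted pairs, and 56.8% of pairs listed in N2 only were called larger in N2. The median difference was 1.05, against 1.96 over all pairs listed in N2 only. The count in N2 was 21 and the median difference 1.54 without AF16 HS replicate 1, in which 25 of the 41 pairs had their highest AF16 value. The 2 collagens listed in both, *col-97* and *col-84* (chosen after its values were seen), were not called. In the 12 name-matched collagens, 1 was called larger in N2 and 0 larger in AF16 (median 0.43). In N2 the epidermal markers *dpy-7* and *bli-1* together had 1828 to 4230 normalized counts in HS and 3555 to 7322 in NHS, and their part in the collagen values was not tested.

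Individual collagens showed how wide the range was. *dpy-17*, whose loss gives short, dumpy animals, had 1346, 1834 and 1526 normalized counts in N2 HS and 78.6, 61 and 77.2 in N2 NHS. Its partner had 13.4, 8.63 and 119.2 in AF16 HS and 32.2, 64.4 and 246 in AF16 NHS. Replicate 3 was the highest of both AF16 groups, the AF16 fold change of -1.67 was not called, and the difference of 6.09 had an SE of 1.24. *col-164* had 101, 79 and 64.9 in N2 HS and 3.93, 3.34 and 2.66 in N2 NHS, against 87.7, 56.1 and 68 in AF16 HS and 73.6, 61.5 and 57.5 in AF16 NHS (difference 4.13, SE 0.39). Only the N2 groups were separate. *col-36* gave a difference of 3.98 (SE 0.66) and *col-95* of 3.18 (SE 0.74).

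Chemoreceptors, the receptors by which sensory neurons detect odours and tastes, were the list with the most pairs. Of 96 pairs, 63 were listed in N2 only, 25 in AF16 only and 8 in both, and 77 were fitted. The response was called larger in N2 for 28 and larger in AF16 for 11, against 30.6% and 22.3% of all fitted pairs (median difference 1.43, against 0.74). Of the 8 listed in both, *sri-36* was called larger in N2 and *srh-17* and *str-204* larger in AF16. *srt-23* had 112, 45.7 and 115 normalized counts in N2 HS and 1.97, 0 and 2.66 in N2 NHS, against 9.74, 5.39 and 10.7 in AF16 HS and 13.1, 9.46 and 18.5 in AF16 NHS (difference 5.87, SE 0.72). The N2 groups were separate and the AF16 groups overlapped. As in other lists, AF16 HS replicate 1 gave a median rise of 1.48 for chemoreceptors, against 0.89 and 0.92 in replicates 2 and 3, and 36 and 10 pairs were called without it. In the name-matched set 2 of 20 fitted chemoreceptors were called larger in N2 and 0 larger in AF16.

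Nuclear hormone receptors, ligand-regulated transcription factors, were split. Of 18 fitted pairs 5 were called larger in N2 and 6 larger in AF16, against 30.6% and 22.3% of all fitted pairs (median -0.69). *nhr-246* had log2 fold changes of 3.74 in N2 and 0.10 in AF16 (difference 3.64, SE 0.40), and *nhr-204* had -0.53 in N2 and 1.65 in AF16 (difference -2.18, SE 0.30). Of 19 name-matched receptors 0 were called larger in N2 and 3 larger in AF16, with the same median of -0.69. The *irld* genes, which encode proteins resembling the outer part of the insulin receptor, had 4 of 6 fitted pairs called larger in N2 (*irld-64*, difference 3.79, SE 0.74) and 0 larger in AF16. F-box, MATH and BTB genes, substrate adaptors of ubiquitin ligases, had 4 of 7 called larger in N2 and 0 larger in AF16, and 3 of 7 without AF16 HS replicate 1. Of the 8 pairs of each list, 7 *irld* and 6 F-box pairs were listed in N2 only, a class with 56.8% of pairs called larger in N2 and 0% larger in AF16.

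Metabolic and detoxification genes had calls both ways, and the counts of these lists stand against 30.6% of all fitted pairs called larger in N2 and 22.3% larger in AF16. In lipid metabolism 6 of 19 fitted pairs were called larger in N2 and 8 larger in AF16. *acdh-4*, an acyl-CoA dehydrogenase, had 78.4, 56.7 and 94.4 normalized counts in N2 HS and 43.8, 51.9 and 49.6 in N2 NHS, against 76.7, 61.5 and 42.9 in AF16 HS and 0.657, 0.946 and 1.03 in AF16 NHS. Its partner was thus near the detection limit in AF16 NHS (difference -4.38, SE 0.42). Of 14 cytochrome P450, UGT and GST pairs 4 were called larger in N2, among them the glutathione transferase *gst-40* (difference 2.20, SE 0.36), and 3 larger in AF16, among them *cyp-23A1* (difference -2.76, SE 0.41). Of 21 pairs of the transporter list 7 were called larger in N2 and 4 larger in AF16. That list was drawn by gene name and also holds acid phosphatase genes. Among its calls are *pho-12*, larger in N2, and *pho-9*, larger in AF16. Innate immune effectors and lectins had 4 of 17 called larger in N2 and 2 larger in AF16. In the list of sperm and yolk genes 4 of 15 were called larger in N2 and 5 larger in AF16. That list was also drawn by gene name, and its calls in AF16 include *ssu-1* and *nspe-4*, whose names do not mark them as sperm or yolk proteins. Patched-related *ptr-16*, listed in AF16 only, had 140, 112 and 117 in N2 HS and 101, 50.6 and 46.5 in N2 NHS, against 2664, 2558 and 2317 in AF16 HS and 122, 99.4 and 123 in AF16 NHS (difference -3.47, SE 0.36).

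**Figure D5:**
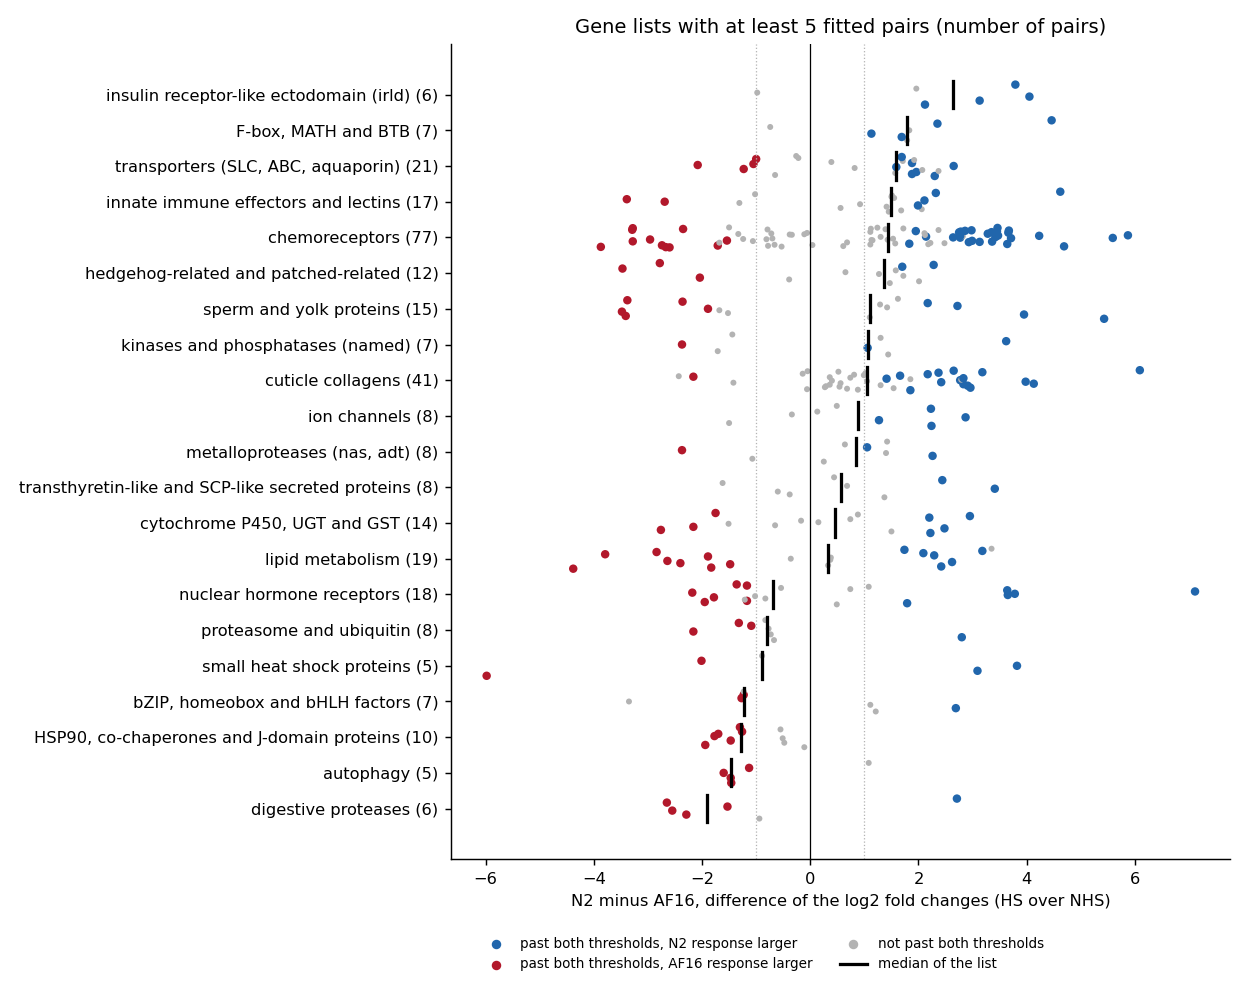
Difference of the log2 fold changes, N2 minus AF16 (x axis), for each pair of the gene lists with at least 5 fitted pairs (number in brackets), with called pairs in blue (larger in N2) or red (larger in AF16), others in grey, and the list's median as a bar. Medians run from -1.91 for digestive proteases and -1.28 for HSP90, co-chaperones and J-domain proteins to 2.63 for *irld* genes. For pairs listed in 1 species the listing favoured 1 side, with exceptions such as *zip-10* (listed in N2 only, -3.35).

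Among pairs listed in N2 only, the response was usually small in AF16. The listing itself favoured this, as it left out AF16 genes that passed the study's thresholds for a rise. The 595 fitted pairs had a median log2 fold change of 2.37 in N2 and 0.40 in AF16. Of these pairs 338 (56.8%) were called larger in N2, or 404 without AF16 HS replicate 1. *scp-1*, the homolog of SCAP, which controls the sterol-sensing transcription factor SREBP (chromosome II, 9334014 to 9338896), had 60073, 74898 and 49378 normalized counts in N2 HS and 2092, 2010 and 1631 in N2 NHS. Its partner had 2962, 2907 and 3030 in AF16 HS and 2718, 2713 and 2579 in AF16 NHS. The rise in N2 was 4.99 and the AF16 value, with groups that were close but separate, was 0.15 (difference 4.84, SE 0.25). *F40F11.4*, now named *spe-36* for a sperm protein, had 1160, 849 and 1018 in N2 HS and 20.6, 15 and 21.3 in N2 NHS, against 172, 198 and 206 in AF16 HS and 166, 168 and 154 in AF16 NHS (difference 5.43, SE 0.29). Other large differences were those of *F55C10.4* (5.92, SE 0.51), *Y53F4B.24* (5.90, SE 0.61) and *F38E1.3* (4.88, SE 0.40).

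Limma also called 4 of these 595 pairs up in AF16. The bZIP factor *zip-10*, chosen after its values were seen, had 763, 1097 and 544 normalized counts in N2 HS and 51.1, 84.3 and 53.2 in N2 NHS, against 751, 467 and 847 in AF16 HS and 3.28, 0 and 33.9 in AF16 NHS. It was called up in both species, by 3.63 in N2 and 6.98 in AF16, although the table lists it in N2 only. The AF16 NHS libraries spread widely, and the difference of -3.35 (SE 1.35) was not called.

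Among pairs listed in AF16 only the mirror image held, which the listing favoured in the same way. The 412 fitted pairs had a median log2 fold change of 0.25 in N2 and 1.66 in AF16. Of these pairs 243 (59%) were called larger in AF16, or 270 without AF16 HS replicate 1. Limma called 20 of them up in N2 as well. *mec-14*, known for its part in touch receptor neurons (chromosome III, 7190189 to 7192992), had 47.9, 60.3 and 52.4 normalized counts in N2 HS and 40.3, 50.9 and 46.1 in N2 NHS, against 1036, 843 and 938 in AF16 HS and 25, 21.8 and 24.7 in AF16 NHS. The N2 groups overlapped and the AF16 groups were wide apart (difference -5.02, SE 0.30, or 32.5-fold). *B0303.14* had 173, 174 and 230 in N2 HS and 173, 192 and 174 in N2 NHS, against 336, 302 and 289 in AF16 HS and 3.94, 3.79 and 0 in AF16 NHS (difference -6.66, SE 0.63). The AF16 fold change of this pair thus started from values near 0 in AF16 NHS. *F41G3.21* (-4.60, SE 0.57) and *F55H12.2* (-4.27, SE 0.41) followed.

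Some genes rose in 1 species and fell in the other, which the listing did not require. Of the 595 fitted pairs listed in N2 only, 5 were called down in AF16 (0.84%, against 1.73% of all AF16 genes), and of the 412 listed in AF16 only, 11 were called down in N2 (2.67%, against 2.77% of all N2 genes), shares that were not above the background. The first count was 16 without AF16 HS replicate 1, 2 without AF16 HS replicate 2, and 0 without AF16 HS replicate 3 or any 1 of the AF16 NHS libraries. The second was 6 without N2 NHS replicate 1 and 7 without N2 NHS replicate 3 or N2 HS replicate 1. In 14 pairs the rise in the listed species was called by limma as well. *srsx-6*, a chemoreceptor gene, had 123, 91.5 and 55.2 normalized counts in N2 HS and 16.7, 14.2 and 15.1 in N2 NHS, against 6.09, 6.47 and 4.77 in AF16 HS and 23.6, 19.9 and 25.7 in AF16 NHS. No groups overlapped, and it rose by 2.40 in N2 and fell by 1.83 in AF16.

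The collagen *col-138* had 153, 167 and 170 normalized counts in N2 HS and 70.8, 60.1 and 56.8 in N2 NHS, against 20.7, 19.4 and 13.1 in AF16 HS and 46, 71.9 and 43.2 in AF16 NHS, a rise of 1.38 in N2 and a fall of 1.53 in AF16. *egas-1*, of the DEG/ENaC channel family, rose by 1.61 in N2 and fell by 1.26 in AF16. *F25D7.5* had 124, 81.1 and 144 in N2 HS and 4.92, 2.5 and 0 in N2 NHS, against 295, 214 and 219 in AF16 HS and 493, 514 and 492 in AF16 NHS. It rose by 5.38 in N2 and fell by 1.06 in AF16, again with no overlap. In the other direction, the globin *glb-34* had 38.5, 36.3 and 15.2 in N2 HS and 99.1, 78.4 and 75 in N2 NHS, against 70.6, 110 and 111 in AF16 HS and 35.5, 27.4 and 38 in AF16 NHS. It fell by 1.55 in N2 and rose by 1.49 in AF16.

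The name-matched pairs, adjusted over their own 743, gave differences free of the selection. The CD36-type scavenger receptor *scav-5* had 3850, 2873 and 3363 normalized counts in N2 HS and 1050, 1065 and 951 in N2 NHS, against 1658, 1571 and 1648 in AF16 HS and 1922, 2137 and 2220 in AF16 NHS. It rose in N2 and its AF16 value of -0.36 was not called (difference 2.07, SE 0.13, limma adjusted p = 1.5e-06). The Mediator subunit *mdt-26* had 5073, 3827 and 7047 in N2 HS and 1370, 1395 and 1330 in N2 NHS, against 952, 811 and 854 in AF16 HS and 857, 886 and 950 in AF16 NHS (difference 1.96, SE 0.23, adjusted p = 2.4e-04). *pqn-74* (2.48, SE 0.47) and *otpl-5* (2.11, SE 0.47) remained past the thresholds in 6 and 3 of 12 fits without a library.

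Larger responses in AF16 among the name-matched pairs were those of *oac-14* and *ptr-16*, already described, *igeg-1*, *ipla-2* and *asp-13*. *igeg-1* had 448, 528 and 338 normalized counts in N2 HS and 380, 384 and 340 in N2 NHS, against 1872, 1629 and 1954 in AF16 HS and 348, 369 and 384 in AF16 NHS (difference -2.08, SE 0.19, limma adjusted p = 3.1e-05). Only the AF16 groups were separate. For *ipla-2*, a phospholipase of the calcium-independent kind, the log2 fold changes were -0.39 in N2 and 1.53 in AF16 (difference -1.92, SE 0.28). The aspartyl protease *asp-13* was lower after HS in both, with 457, 434 and 371 in N2 HS and 3403, 2879 and 3101 in N2 NHS, against 2787, 1481 and 1422 in AF16 HS and 3513, 3666 and 3317 in AF16 NHS. Its fall of 2.89 in N2 was called and the AF16 value of -0.95 was not (difference -1.94, SE 0.29).

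Examples of pairs with Helitron-borne HSEs in 1 species were *col-52*, with Hac-HSEs in *C. elegans*, and *C01G6.3*, with Hac-HSEs at its *C. briggsae* partner CBG00919. CBG00919 was also listed with Hin-HSEs upstream. The *col-52* gene had 57.4, 31.2 and 48.3 normalized counts in N2 HS and 9.83, 10.9 and 4.43 in N2 NHS, against 12.2, 2.16 and 2.38 in AF16 HS and 4.6, 1.89 and 2.06 in AF16 NHS. The N2 groups were separate, and in AF16 replicate 1 was the highest in HS and in NHS. The rise of 2.35 in N2 was called and the AF16 value of 0.50 was not, and the difference of 1.85 (SE 0.77) did not pass the thresholds. Of the fits that left out a library it passed them in 1, that without AF16 HS replicate 1 (2.52). *C01G6.3* had 11.5, 0 and 6.9 in N2 HS and 7.86, 1.67 and 6.21 in N2 NHS, against 388, 377 and 364 in AF16 HS and 22.3, 36.9 and 34.9 in AF16 NHS (difference -3.84, SE 0.97). The *F33H12.6* transposase had no single partner in the table, where CBG26851 stands with *F52G3.4*.

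The differences were also summarized by the kind of HSE upstream. Among fitted pairs listed in N2 only, the median difference was 1.98 for 16 pairs with Hac-HSEs alone, 1.77 for 7 with both kinds, 2.09 for 99 with Hin-HSEs alone and 1.95 for 473 with neither. The shares called larger in N2 were 62.5%, 57.1%, 62.6% and 55.4%. Among fitted pairs listed in AF16 only, the median difference was -1.71 for 3 pairs with Hac-HSEs alone, -1.94 for 14 with both kinds, -1.43 for 196 with Hin-HSEs alone and -1.49 for 199 with neither. The shares called larger in AF16 were 33.3%, 85.7%, 60.7% and 55.8% in the same order. No test was run on these groups. Among pairs listed in both species, 8 had Hac-HSEs upstream of either partner, and 2 of them, *F52G3.4* and *Y17D7C.2* (difference 1.56, SE 0.39), were called. Both were larger in N2 and had Hac-HSEs together with Hin-HSEs upstream of the *C. briggsae* gene. The second of them was chosen after its values were seen.

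The pairs also lay on different chromosomes of *C. elegans*. The X chromosome held 6.67% of the pairs listed in N2 only, 18.5% of those listed in AF16 only and 10.1% of those listed in both, against 14% of all tested *C. elegans* genes. Chromosome V held 27.8%, 26.1% and 26.8% of these groups, against 22.7% of all tested genes. These shares are given as a description.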

How the data were processed

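The authors made the 12 libraries from total RNA with a stranded kit, and the signal values used here are the normalized counts per gene that they deposited, made by assigning reads to the mRNA transcripts of each species with Salmon 0.13.1 and dividing by DESeq2 1.18.1 factors within each species. Whole reads were recovered for too few N2 values (90.8 to 92% of low values whole within 0.05), so no count test was run and depth is an estimate, the sum divided by the value of 1 read. The labels name build ce11 also for AF16, where the paper names cb4. Columns not used numbered 0, and no libraries were identical.

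Pairs with a mean of at least 2 in each species were fitted with limma 3.58.1 (R 4.3.3, statmod 1.5.0, trend, robust, two-sided) to 4 group means of log2(normalized count + 1), which understates changes of low genes, and the difference of fold changes was adjusted over all pairs. Calls needed an adjusted p under 0.01 and a fold difference above 2, the study's thresholds. "Rose" and "fell" refer to limma calls within a species over all its genes. The pairing, listing and HSE classes came from the study's supplementary tables, whose fold changes and p-values were not used. Positions are from the WBcel235 annotation (1315 of 1317 pairs). Of 506 pairs with a Cbr- name, 456 carried their partner's name. Python 3.11.15, pandas 2.3.3, numpy 2.4.6 and matplotlib 3.10.9 were used, and the fit was tested on simulated data.

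The members, the 33 gene lists (3 with no pair of the table, for TRiC and mitochondrial chaperonins, translation, and HSF-1) and the rule for named pairs were chosen with earlier results of these data known. Named pairs are the study's examples, the 10 largest called differences each way and the 10 largest mean rises with an interval within -1 and 1 among pairs listed in both species, the 10 largest differences and 5 most negative falls from each side among the others, up to 4 called pairs of each list, all chaperone pairs and the 5 largest each way among name-matched pairs, with a mean of at least 10. Not all of them are printed.

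Alternatives were pseudocounts of 0.5 and 5, no filter or a mean of at least 10, equal totals, TMM scaling, a term for the replicate number, separate variances, an adjusted p under 0.05, no minimum fold, pairs with matching names only, and leaving out each library. Deviations of same-numbered HS and NHS libraries correlated at 0.18, 0.16 and 0.29 in N2 and at 0.02, 0.12 and 0.10 in AF16, so the replicate number paired the N2 libraries but not all AF16 libraries.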

Additional observations from a re-analysis of the deposited data

Results flagged for a closer look

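For the species difference as a whole, 360 pairs of the table had a larger response in N2 and 262 a larger one in AF16, and among name-matched pairs the counts were 14 and 19. The difference between the species was itself fitted in each case, and for table pairs listed in 1 species 1 direction was favoured by the listing.

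In 14 pairs limma called the gene up in 1 species and down in the other. Up in N2 and down in AF16 were *F25D7.5* (difference of log2 fold changes 6.43), *srsx-6* (4.23), *col-138* (2.91), *egas-1* (2.87) and *F58G1.7* (2.31). Down in N2 and up in AF16 were *F59A3.8* (-6.44), *C05E7.1* (-4.64), *glb-34* (-3.04), *Y37D8A.19* (-2.76), *C16D9.1* (-2.59), *Y53F4B.20* (-2.56), *Y37D8A.4* (-2.41), *T05C12.8* (-2.35) and *F47B10.9* (-2.14). In each of the 14 the species difference remained past the thresholds when any of the 12 libraries was left out. Falls taken within 1 species were less stable. Over all pairs listed from the other side only, leaving out a library of that species gave 0 to 16 falls in AF16 and 6 to 9 in N2, against 5 and 11 with all libraries. *F59A3.8* had 191, 25.9 and 31 normalized counts in AF16 HS, and its difference was -5.54 without AF16 HS replicate 1.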

How the results depend on the processing

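Over the 135 named pairs of the table and 10 name-matched ones, 3 of which are in both sets, 3019 values under the alternatives kept their side of the thresholds, 163 lost the call, 4 gained it and 1 moved by more than its SE. No called difference changed sign, whereas 27 values of 8 uncalled pairs near 0 did, such as *aip-1* (-0.11, and 0.25 without N2 HS replicate 3). Restricting the table to pairs with matching names left 114 pairs larger in N2 and 115 in AF16, against 360 and 262 with all pairs. Among those listed in both species it left 7 and 11, against 22 and 19. Fewer pairs were tested there, and the cause of the changed balance was not tested. At an adjusted p under 0.05, 41 pairs listed in both were larger in N2, name-matched pairs numbered 29 and 34, and 13 pairs listed in N2 were down in AF16. With no minimum fold difference the name-matched counts were 22 and 47, and falls in the other species numbered 16 in AF16 and 31 in N2. A mean of at least 10 left 9 name-matched pairs larger in N2. With libraries scaled to equal totals the median over all genes shifted to -0.32 in N2 and -0.37 in AF16 (log2), against 0.04 and 0.01 as deposited, and the falls numbered 29 in AF16 and 28 in N2. No count of species differences moved by over 1.5 times under this scaling.

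Leaving out each library gave 306 to 436 pairs larger in N2 and 219 to 292 in AF16, 16 to 32 and 12 to 22 among pairs listed in both, 9 to 33 and 13 to 37 among name-matched pairs, and 0 to 16 falls in AF16 and 6 to 9 in N2. All of these but the falls in N2 were highest without AF16 HS replicate 1. The lowest AF16 count among pairs listed in both, 12, came without AF16 NHS replicate 1, and the 9 name-matched pairs without N2 HS replicate 1 or AF16 NHS replicate 2 or 3. The cause was not tested. With the replicate block, 364 pairs were larger in N2 and 262 in AF16, 10 and 17 among name-matched pairs, and 5 of the named pairs lost their call. A pair with few counts in 1 species is limited by depth, as a single read there changes the log2 value.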
